A study of Mus musculus with 6 samples.

Results

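Transcripts of 2 kinds of secreted protease inhibitor, the Serpina3 serpins and alpha-2-macroglobulin (A2m), were followed in ribosome-bound RNA after an injection of lipopolysaccharide (LPS), the endotoxin of Gram-negative bacteria. The 8 genes considered were Serpina3n, Serpina3f, Serpina3g, Serpina3h, Serpina3i, Serpina3k, Serpina3m and A2m. A transcript cluster, the probe group that stands for a gene on these Affymetrix whole-transcript arrays, was taken for each gene symbol named in the authors' deposited comparison table. Of the 8 symbols, 6 were carried by a cluster, out of 34472 clusters in that table, and each of the 6 had exactly 1 cluster. Serpina3h and Serpina3k were no cluster's symbol and were not analysed as members. The genes were chosen by their gene family with the LPS-minus-saline differences of these same arrays known, and a cluster would have been selected on its mean over the 6 arrays where a symbol had several. Their differences between the groups are therefore given as a description of these genes and not as independent evidence of a response.

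The mice were all transgenic for RPL10a, a protein of the large ribosomal subunit, fused to Flag and EGFP. The CD11b promoter drove the fusion, and it is used by myeloid cells such as microglia, macrophages and neutrophils. The saline group and the LPS group (5 mg/kg) were both sampled at 24 h, with 3 arrays each. Every array held RNA pooled from 5 animals, 2 to 3 months old and labelled as having an equal ratio of the sexes, recovered on tagged ribosomes by translating ribosome affinity purification (TRAP). The tissue is not given in the labels, and all animals share the transgene, so no untagged control bears on which cells a transcript came from.

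Serpins are inhibitors that offer a protease a flexible reactive loop as bait. Cleavage of the loop springs the serpin into a new fold and leaves the protease trapped and distorted. In the mouse the Serpina3 genes form a tandem array of close relatives of human SERPINA3, the acute-phase protein alpha-1-antichymotrypsin, and differ most in that loop, hence in the proteases they bind. Serpina3n inhibits granzyme B, cathepsin G and leukocyte elastase, and in brain it is widely used as a marker of reactive astrocytes. A2m works in another way. It is a large protein with a bait region that almost any protease can cut, after which it closes around the enzyme as a cage and is cleared through the receptor LRP1.

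The median log2 signal over all clusters was 5.16 to 5.35 in the saline arrays and 5.17 to 5.42 in the LPS arrays. A principal component analysis set the 2 arrays numbered 3 apart from the other 4 on its leading axis (53.2% of the variance) and the groups apart on the next (16.3%). Neuron markers stood at a mean log2 signal of 10.74 to 10.95 in the saline arrays and 10.75 to 10.89 in the LPS arrays, and microglia markers at 6.80 to 7.08 and 6.49 to 6.88. The purified RNA thus gave signal for genes of cells outside the myeloid lineage, and the cell type in which a transcript arose was not measured. In such RNA fewer cells of a type and less RNA per cell cannot be told apart.

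Serpina3n (transcript cluster 17278328) had the greatest difference of the 6 clusters. Its log2 signal was 7.97, 7.96 and 7.59 in saline 1, 2 and 3, and 9.39, 10.41 and 10.59 in LPS 1, 2 and 3. Every LPS array exceeded every saline array, with a gap of 1.41 between the lowest LPS array and the highest saline array, and LPS 1 was the lowest of its group. The group means were 7.84 ± 0.22 and 10.13 ± 0.65 (SD, n = 3 each), a log2 difference of 2.29 ± 0.31 (limma's moderated SE; 95% interval 1.58 to 2.99), or 4.88-fold. Among the 34472 clusters this was the 13th greatest difference towards LPS and the 13th lowest p. It did not pass after adjustment over all clusters (limma with Benjamini-Hochberg, adjusted p = 0.164, threshold 0.05). Without LPS 1 the difference was 2.66 and passed (limma adjusted p = 0.0191), and with arrays weighted by their quality it was 2.21 and passed (limma adjusted p = 0.018). Over the other alternatives the limma adjusted p ran from 0.099 to 1.0. The authors' deposited table gives a 5.77-fold higher value after LPS, from bi-weight averages of 10.49 and 7.96, with an unadjusted analysis-of-variance p of 0.004401.

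A2m (cluster 17462492) was the other member that was higher in every LPS array. Its log2 signal was 5.82, 5.34 and 5.32 in saline 1, 2 and 3, and 6.32, 7.12 and 7.03 in LPS 1, 2 and 3. LPS 1 was again the lowest LPS array, and it lay 0.50 above saline 1, the highest saline array. The means were 5.49 ± 0.28 and 6.82 ± 0.44 (SD, n = 3 each), a log2 difference of 1.33 ± 0.25 (SE; 95% interval 0.75 to 1.90), or 2.51-fold. It ranked 54th by difference and 37th by p among all clusters and did not pass (limma adjusted p = 0.567, and 0.142 to 1.0 over the alternatives). The authors' deposited table gives 3.34-fold, with an unadjusted analysis-of-variance p of 0.011525. The adjusted p in the authors' deposited table is 0.999886 for A2m and for Serpina3n.

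**Figure D1:**
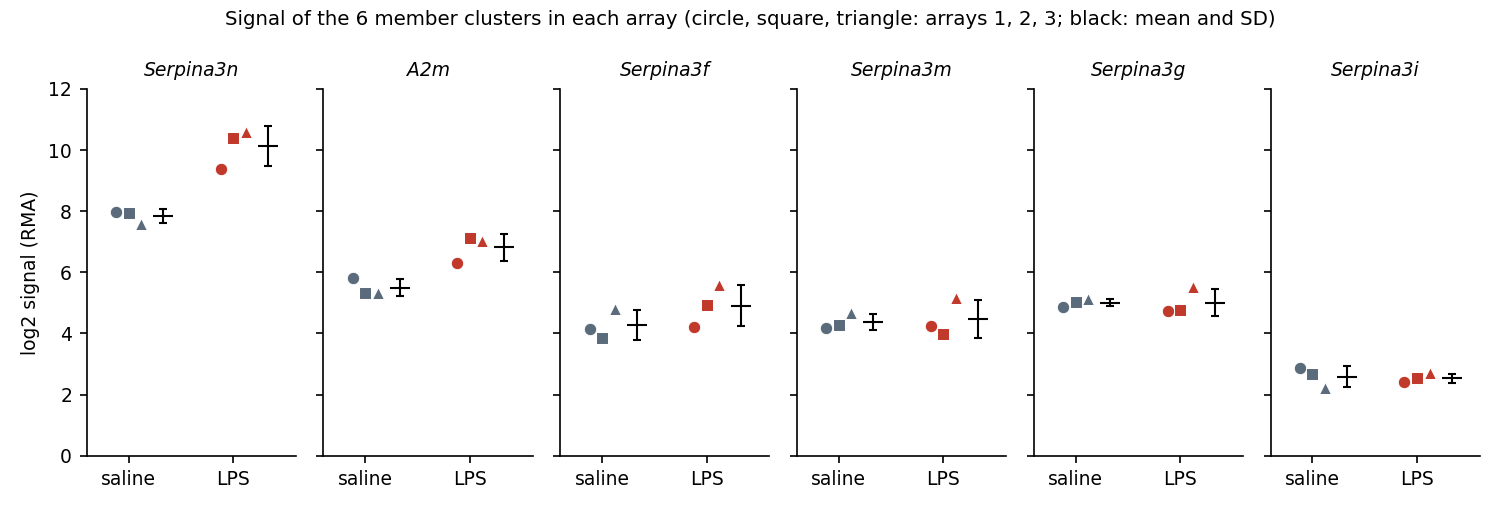
Log2 signal of the 6 member clusters in each array (vertical axis), saline in grey and LPS in red, with circles, squares and triangles for arrays 1, 2 and 3 and black bars for the mean and SD (n = 3). The LPS points of Serpina3n (9.39 to 10.59) and of A2m (6.32 to 7.12) lie above all of their saline points, while in the other 4 clusters the groups overlap.

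None of the 6 members passed the threshold over all clusters. Over all clusters, 1 passed upward (0.0029% of clusters) and 0 passed downward, while 512 clusters (1.49%) had an unadjusted limma p under 0.05 with LPS higher and 266 (0.772%) with LPS lower. Serpina3n and A2m, 2 of the 6, had an unadjusted limma p under 0.05 and also lay wholly above the saline arrays, a pattern seen in 3.61% of all clusters, and 0 of the 6 lay wholly below them (3.1% of all clusters). The median difference of the 6 was 0.36, beside -0.0016 over all clusters. That median was 0.10 without LPS 3, 0.23 without saline 2 or without both arrays numbered 3, 0.57 without saline 3 and 0.59 without LPS 1. Over the clusters of at least median mean signal, which left only Serpina3n and A2m of the members, it was 1.81.

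**Figure D2:**
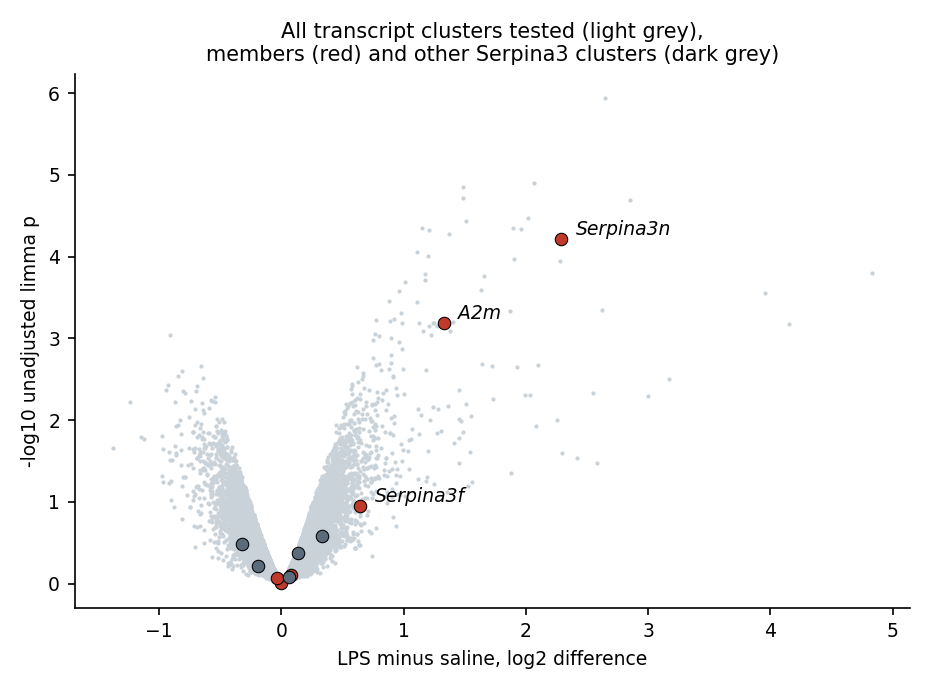
Log2 difference between LPS and saline (horizontal axis) against -log10 of the unadjusted limma p (vertical axis) for each of the 34472 clusters, with the 6 members in red and 5 other Serpina3 clusters in dark grey. Serpina3n (2.29) and A2m (1.33) lie on the outer right of the cloud, Serpina3f (0.64) at its edge, and the others near 0.

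Serpina3n and A2m were also alike from array to array. Within the LPS group both were lowest in LPS 1, where Serpina3n lay 1.55 and A2m 0.83 above its own saline mean. In LPS 2 the offsets were 2.57 and 1.62, and in LPS 3 they were 2.75 and 1.53. Between arrays of the same number the difference was 1.41, 2.45 and 3.00 for Serpina3n at numbers 1, 2 and 3, and 0.50, 1.78 and 1.71 for A2m. The step within 1 array from A2m to Serpina3n was 2.15 to 2.62 in the saline arrays and 3.06 to 3.56 in the LPS arrays, so the groups did not overlap in this step either. Signals of different clusters depend on their probes, so the size of that step cannot be read. Its change can also depend on the signal level, and A2m was dimmer than Serpina3n in every array. Whether Serpina3n rose more than A2m was not tested. Over the 6 arrays Pearson's r between the 2 genes was 0.98, a value set largely by the distance between the groups and given here as a description.

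**Figure D3:**
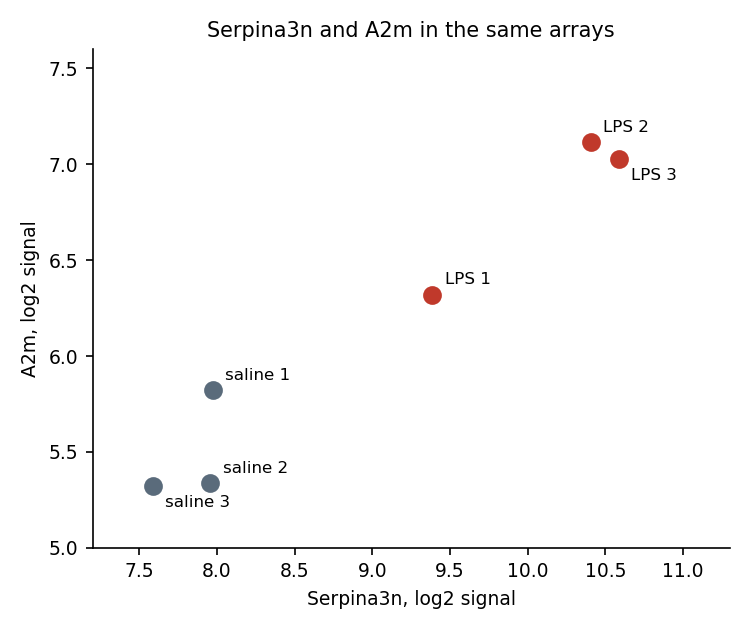
Log2 signal of Serpina3n (horizontal axis) against that of A2m (vertical axis), 1 point per array, saline in grey and LPS in red. The saline arrays sit at the lower left, LPS 2 and LPS 3 at the upper right, and LPS 1 (9.39 and 6.32) between them.

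The 4 other Serpina3 members had low signals, between 2.20 and 5.58, where RMA compresses differences, and their groups overlapped. Serpina3f (cluster 17278268), a neighbour of Serpina3g within the tandem array, had log2 signals of 4.15, 3.85 and 4.81 in saline 1, 2 and 3 and 4.23, 4.93 and 5.58 in LPS 1, 2 and 3. LPS 1 lay among the saline arrays, and LPS 2 and LPS 3 lay above them. The difference was 0.64 ± 0.36 (SE; 95% interval -0.19 to 1.48) and did not pass, with 0.31 without LPS 3 and 0.99 without LPS 1. The description of this cluster names Serpina3g beside Serpina3f, so the signal cannot be assigned to Serpina3f alone.

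The cluster with the symbol Serpina3g (17278290) had log2 signals of 4.88, 5.04 and 5.12 in saline 1, 2 and 3 and 4.74, 4.78 and 5.51 in LPS 1, 2 and 3. LPS 1 and LPS 2 lay below all saline arrays and LPS 3 above them. The difference was -0.0035 ± 0.23 (SE; 95% interval -0.53 to 0.52). Serpina3g encodes an inhibitor known in the mouse to act inside cells on cysteine cathepsins released from lysosomes. The RefSeq accession of the cluster, however, matched Serpina3h, a transcribed pseudogene, and the description names both genes, so the values may belong to either.

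Serpina3m (cluster 17278321), a liver serpin of the mouse, gave log2 signals of 4.17, 4.28 and 4.68 in saline 1, 2 and 3 and 4.23, 3.98 and 5.16 in LPS 1, 2 and 3. The arrays numbered 3 were the highest of each group. The difference was 0.081 ± 0.30 (SE; 95% interval -0.62 to 0.78). Serpina3i (cluster 17278296), a little-studied paralog, stood at 2.87, 2.67 and 2.20 after saline and 2.40, 2.53 and 2.69 after LPS in arrays 1, 2 and 3. Here the LPS arrays lay within the range of the saline arrays, with a difference of -0.039 ± 0.20 (SE; 95% interval -0.50 to 0.43). The directions of Serpina3g, Serpina3i and Serpina3m turned when single arrays were left out. For these 3 clusters a difference of the size measured in Serpina3n lies outside the interval of the measured signal. At signals this low RMA compresses differences, so a change of that size in the transcript is not excluded. Differences up to the bounds given cannot be told from 0.

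Serpina3k, a serpin of liver and plasma also called contrapsin, was represented only through its accession. The cluster that holds it carries the symbol LOC100505251 and a description naming an A3K-like inhibitor beside Serpina3k. In all 2 clusters carry this symbol, and the other, without the Serpina3k accession, is not reported here. The cluster with the accession read 3.07, 3.65 and 3.84 after saline and 4.33, 3.74 and 3.48 after LPS in arrays 1, 2 and 3. The groups overlapped, and the difference was 0.33 ± 0.28 (SE; 95% interval -0.30 to 0.96). Without LPS 1 it was 0.089, without saline 1 it was 0.10, and without both arrays numbered 3 it was 0.67.

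The remaining Serpina3 genes of the tandem array were Serpina3a, Serpina3b, Serpina3c and Serpina3j, and 0 of these 4 passed or had groups that did not overlap. Their differences were -0.19 ± 0.36 for Serpina3a, -0.32 ± 0.31 for Serpina3b, 0.064 ± 0.30 for Serpina3c and 0.14 ± 0.16 for Serpina3j (SE). All 4 directions turned under some of the alternatives. Mean signals over the 6 arrays were low in these 4 clusters, 3.34 to 3.60, where RMA compresses differences. In the RefSeq order of genes on chromosome 12 the neighbours of Serpina3n are Serpina3m and, beyond a pseudogene that is no cluster's symbol, Serpina3k and Serpina3j. Serpina3n is the last gene of the array. Whether the paralogs differ from Serpina3n in their response was not tested.

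**Figure D4:**
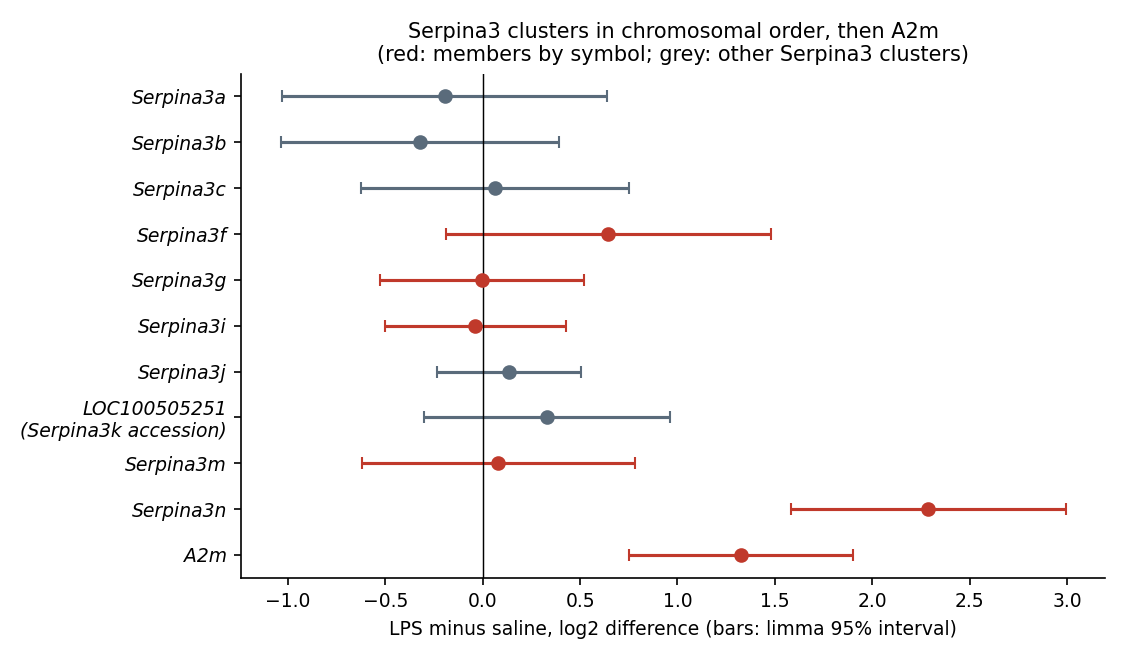
Log2 difference between LPS and saline with limma's 95% interval (horizontal axis) for the 10 Serpina3 clusters in chromosomal order and for A2m, members in red and other Serpina3 clusters in grey. The intervals of Serpina3n (1.58 to 2.99) and A2m (0.75 to 1.90) lie above 0, and the 9 others include 0.

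The start regions of the paralogs are shown because the Serpina3 members are neighbouring copies of a gene. Among these Serpina3 members only Serpina3n had all LPS arrays above all saline arrays. RefSeq windows of GRCm38.p6, from 250 bases before to 50 bases after a start, were in the sequence table for 4 of the 8 genes, namely Serpina3n, Serpina3f, Serpina3g and Serpina3i. Each was searched on both strands for a STAT motif (TTCNNNGAA), a C/EBP motif (TTGCNNAA), an NF-kB motif, an interferon-stimulated response motif (GAAA, any 2 bases, GAAA) and a glucocorticoid receptor motif (GNACA, any 3 bases, TGTNC). No motif overlapped another in the windows printed, and capitals mark the matches. The Serpina3c window, on the minus strand, is shown because it is the most like that of Serpina3n among the Serpina3 windows in the table, and the other windows printed lie on the plus strand. Serpina3f had 2 overlapping windows, of which the first is used. The windows are chr12:104406458-104406757 for Serpina3n, chr12:104153823-104154122 for Serpina3c, chr12:104214294-104214593 for Serpina3f and chr12:104262872-104263171 for Serpina3i.
Serpina3n: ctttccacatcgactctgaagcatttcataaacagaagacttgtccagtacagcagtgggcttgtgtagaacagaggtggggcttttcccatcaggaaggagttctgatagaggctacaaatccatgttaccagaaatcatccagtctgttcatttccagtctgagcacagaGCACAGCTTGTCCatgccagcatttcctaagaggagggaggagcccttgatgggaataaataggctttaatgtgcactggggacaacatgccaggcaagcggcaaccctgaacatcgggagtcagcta
Serpina3c: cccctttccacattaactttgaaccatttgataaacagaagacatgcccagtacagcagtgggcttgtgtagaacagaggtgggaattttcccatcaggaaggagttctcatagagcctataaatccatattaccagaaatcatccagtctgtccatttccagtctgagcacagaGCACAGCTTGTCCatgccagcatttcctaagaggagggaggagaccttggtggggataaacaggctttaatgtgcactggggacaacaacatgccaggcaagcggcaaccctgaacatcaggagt
Serpina3f: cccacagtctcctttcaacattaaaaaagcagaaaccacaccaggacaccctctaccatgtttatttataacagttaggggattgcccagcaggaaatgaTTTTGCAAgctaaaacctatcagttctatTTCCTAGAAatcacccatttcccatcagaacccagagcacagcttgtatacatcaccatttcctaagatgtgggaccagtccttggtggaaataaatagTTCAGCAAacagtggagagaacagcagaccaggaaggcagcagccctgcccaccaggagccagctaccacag
Serpina3i: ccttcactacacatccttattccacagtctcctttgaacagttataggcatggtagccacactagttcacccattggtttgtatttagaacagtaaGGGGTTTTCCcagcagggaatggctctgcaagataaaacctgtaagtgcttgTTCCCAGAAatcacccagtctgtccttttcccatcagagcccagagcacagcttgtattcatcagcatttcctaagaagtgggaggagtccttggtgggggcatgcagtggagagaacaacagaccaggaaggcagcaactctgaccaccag

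The Serpina3n window held 1 match, to the glucocorticoid receptor motif, starting 78 bases before the start, and none to the other 4 motifs. This motif was in 0.475% of the 32851 windows listed. Serpina3c held the same letters 75 bases before its start, and its window was identical to that of Serpina3n in 275 of 306 aligned columns (89.9%). The log2 difference of Serpina3c was 0.064. Serpina3f and Serpina3i were identical to Serpina3n in 61.9% and 61.7% of columns. Serpina3f held a STAT match (8.3% of all windows hold one) and 2 C/EBP matches (10.8%). Serpina3i and Serpina3g each held a STAT match and an NF-kB match (8.46%). A match of letters describes the window and does not show that a factor binds there. No window for A2m was among those listed.

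The genes whose values over the 6 arrays were most like those of Serpina3n, among 14427 genes of at least median signal, were Slfn2, Plin4, Chka, Ms4a6d and Gbp2. Their Pearson's r with Serpina3n was 0.996 for Slfn2 and Plin4, 0.993 for Chka, 0.991 for Ms4a6d and 0.990 for Gbp2 (6 arrays). Plin4 coats lipid droplets, Chka is a choline kinase, Ms4a6d is a membrane protein of myeloid cells and Gbp2 is an interferon-induced GTPase. Their log2 differences were 1.25 for Slfn2, 1.96 for Plin4, 0.49 for Chka, 2.02 for Ms4a6d and 2.28 for Gbp2, and 0 of the 5 passed over all clusters in the reported fit. With array weights Plin4, Ms4a6d and Gbp2 passed (limma adjusted p = 0.018, 0.0166 and 0.0201). The genes most like A2m were Apod, a lipid-binding secreted protein, Pdk4, a kinase that restrains pyruvate oxidation, the guanylate-binding Gbp9, Slfn2 and the cholesterol exporter Abca1. Their r with A2m was 0.996, 0.988, 0.985, 0.980 and 0.977. Slfn2 was thus named for both. Such values mostly record that the LPS arrays lie above the saline arrays with LPS 1 lowest.

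Of the other clade A serpins, which include the alpha-1-antitrypsin genes and the hormone carrier Serpina6, 12 of 14 were measured, and 0 passed by limma or had an unadjusted p under 0.05. Their median difference was 0.12 (-0.012 without LPS 3), and 0 had groups without overlap. The lowest p-values belonged to Serpina12 (-0.43 ± 0.24 SE), Serpina5 (0.33 ± 0.19) and Serpina11 (0.40 ± 0.24). The values turned on single arrays: Serpina5 was 0.15 and Serpina11 0.23 without LPS 3, and Serpina12 was -0.23 without saline 3. Mean signals of these genes were low, 3.52 to 3.87, where RMA compresses differences. Serpins of other clades, all 28 measured, had a median of 0.082 (0.038 without LPS 3). By limma 0 passed, and 2 had an unadjusted p under 0.05 with LPS higher, beside 1.49% of all clusters. Among them Serping1, the C1 inhibitor that restrains complement and contact activation, differed by 1.06 ± 0.36 (0.69 without LPS 3). Serpinc1, which encodes antithrombin, differed by 0.39 ± 0.16, and the neutrophil protease inhibitor Serpinb1a by -0.88 ± 0.50 (-0.43 without LPS 2). The mean signal of Serpinc1 was also low (3.08).

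Of the macroglobulin family 8 of 9 genes were measured, 0 passed by limma, and the median was 0.19 (0.099 without LPS 3). An unadjusted limma p under 0.05 with LPS higher was found for 3, beside 1.49% of all clusters. The same number lay wholly above the saline arrays, beside 3.61% of all clusters. The protease-trapping relatives Pzp, Mug1 and Mug2, the last 2 being murinoglobulins, differed by -0.022, 0.15 and -0.43, and the membrane-anchored Cd109 by 0.23. The complement proteins C4b, C3 and C4a, which belong to the same family of thioester proteins, differed by 1.20 ± 0.16, 0.98 ± 0.34 and 0.58 ± 0.21 (SE), each with all LPS arrays above all saline arrays. Hc, which encodes complement C5, differed by -0.11. Among the alternatives run C4b passed only with array weights (limma adjusted p = 0.018), and the descriptions of the C4b and C3 clusters name more than 1 gene. Without both arrays numbered 3 the differences of C3 and C4a were 0.57 and 0.33. The mean signal of C4a was low (3.90), where RMA compresses differences. The receptors that clear inhibitor complexes and 2 chaperones beside them were all measured, 7 genes with a median of -0.17 (0.012 without saline 1), and 0 passed or had an unadjusted limma p under 0.05. Lrp8 and Vldlr, receptors that also bind reelin, differed by -0.19 ± 0.17 and -0.17 ± 0.18 (SE).

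The proteases that such inhibitors meet showed a median of 0.078 over 33 genes (-0.010 without LPS 3). By limma 0 passed and 3 had an unadjusted p under 0.05, of which 2 were higher after LPS, and 4 genes lay wholly above the saline arrays. The shares of all clusters were 1.49% with such a p upward, 0.772% downward and 3.61% wholly above. The stromelysin Mmp3 differed by 0.99 ± 0.38 (SE; 0.40 without both arrays numbered 3), the membrane-anchored Mmp14 by 0.45 ± 0.18 and Adamts4, which cuts matrix proteoglycans, by -0.41 ± 0.18 (-0.26 without LPS 2). Other secreted inhibitors had a median of 0.086 over 24 genes (0.011 without LPS 3), again with 0 past the threshold by limma and 3 at an unadjusted p under 0.05. Timp1, the inducible inhibitor of matrix metalloproteases, had a mean of 4.73 ± 0.084 in the saline arrays and 6.28 ± 1.08 in the LPS arrays (SD, n = 3 each), and thus a difference of 1.55 ± 0.46 (SE). The heavy chains of inter-alpha-trypsin inhibitor Itih3 and Itih2 differed by 0.44 ± 0.15 and 0.51 ± 0.18. All 3 had LPS arrays above every saline array, among 5 of the 24 that did, beside 3.61% of all clusters.

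Signals known to induce human SERPINA3 and rat A2m in liver cells, above all IL-6-type cytokines acting through STAT3, were measured for 28 of 29 genes. By limma 0 passed, the median was 0.24 (0.12 without LPS 3), and 24 were positive. An unadjusted limma p under 0.05 with LPS higher was found for 6, beside 1.49% of all clusters. Wholly above the saline arrays lay 8, beside 3.61% of all clusters. The cytokine Tnf differed by 1.51 ± 0.42 (SE; 0.96 without both arrays numbered 3) and Stat3 by 0.67 ± 0.19. Stat3 read 8.94, 9.03 and 8.83 after saline and 9.30, 9.59 and 9.91 after LPS in arrays 1, 2 and 3. The IL-6-type cytokines Il6, Osm, Lif, Clcf1 and Il11 differed by 0.14, 0.093, 0.20, 0.075 and -0.059, and the receptor Osmr by 1.46. The part of these signals in the values of Serpina3n and A2m was not tested.

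**Figure D5:**
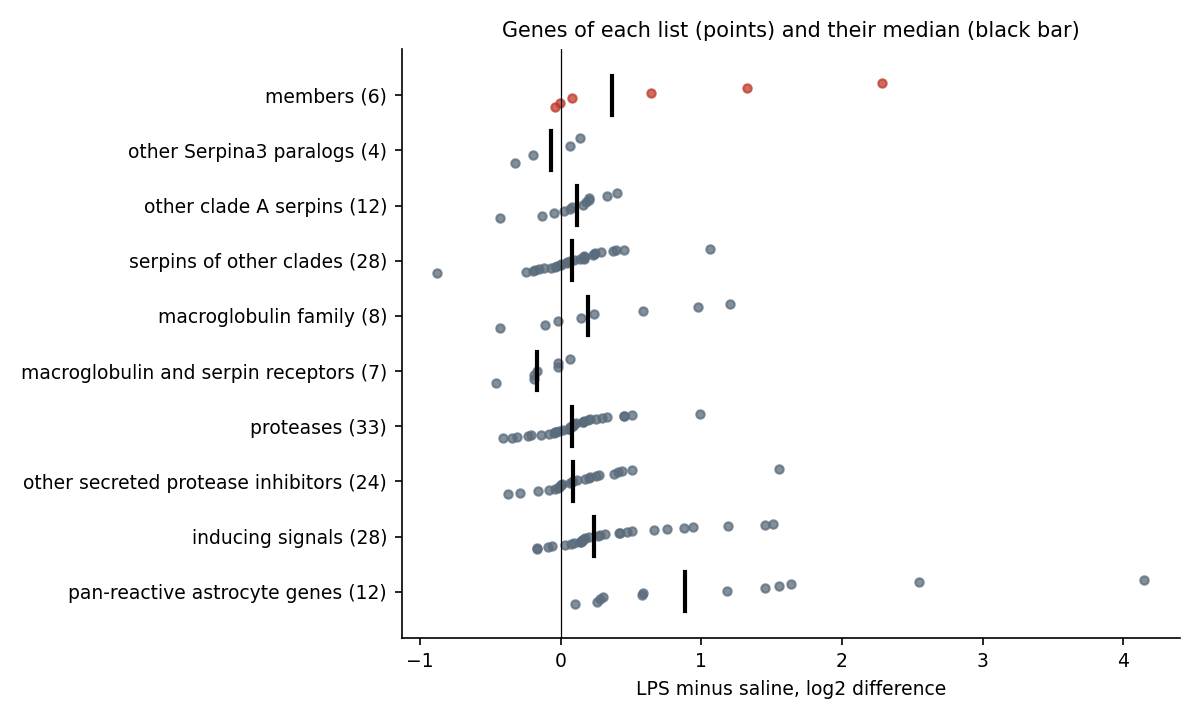
Log2 difference between LPS and saline (horizontal axis) of each measured gene in 10 lists, with the number of genes in brackets and a black bar at the median. Medians lie between -0.17 and 0.36 in 9 lists and at 0.89 for the pan-reactive astrocyte genes.

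Genes used as markers of reactive astrocytes were listed with earlier results of these data known, so their counts are only a description. Of these 12 genes 0 passed by limma, 12 were positive, and the median was 0.89. An unadjusted limma p under 0.05 with LPS higher was found for 7, beside 1.49% of all clusters. Wholly above the saline arrays lay 9, beside 3.61% of all clusters. The list does not show in which cells Serpina3n arose. Lcn2, which binds bacterial iron carriers, differed by 4.15 ± 0.79 (SE), Cp, a copper-carrying ferroxidase, by 1.64 ± 0.37 and Gfap, the astrocyte filament protein, by 1.19 ± 0.28. Without LPS 1 Lcn2 differed by 5.22 and passed (limma adjusted p = 0.00963). Gfap read 8.41, 8.58 and 8.81 after saline and 9.23, 9.77 and 10.35 after LPS in arrays 1, 2 and 3. The summed linear signal of the 12 general astrocyte markers was 5873 to 6833 in the saline arrays and 7237 to 7826 in the LPS arrays, without overlap, with 10 of 12 positive, and their median difference was 0.12 (0.080 to 0.19 with single arrays left out). Gfap is in both lists and had the greatest difference of these 12 too, followed by Slc1a3 (0.39) and Fgfr3 (0.34). The sum was not taken without Gfap. Their part in the values of Serpina3n and A2m was not tested.

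Markers of other possible sources were set beside the same values. The summed signal of 11 hepatocyte markers was 264 to 326 after saline and 284 to 368 after LPS. Their median difference was 0.095, with 8 of 11 positive, and it was -0.065 without LPS 3, -0.048 without saline 2 and -0.012 with array weights. That of 10 neutrophil markers was 198 to 226 and 222 to 359, with 9 of 10 positive and a median of 0.36 (0.039 without LPS 3, 0.095 without both arrays numbered 3 and 0.11 over the clusters of at least median signal). That of 10 pericyte and fibroblast markers was 1573 to 1759 and 1806 to 2194, without overlap, with 6 of 10 positive and a median of 0.085 (-0.0072 to 0.17 with single arrays left out). Of these Dcn differed by 0.82, Col1a1 by 0.33 and Col1a2 by -0.31, the last with all LPS arrays below all saline arrays. The summed signal of 12 microglia markers was 1539 to 1864 and 1216 to 1720, with 1 of 12 positive and a median of -0.24 (-0.34 to -0.15 with single arrays left out). At an unadjusted limma p under 0.05, 3 were lower after LPS and 1 higher, beside 0.772% and 1.49% of all clusters. The same numbers lay wholly below and wholly above the saline arrays, beside 3.1% and 3.61%. P2ry12, Siglech and Fcrls differed by -1.24, -0.94 and -0.70, and C1qa by 0.53. The summed signal of 9 blood monocyte markers was 1577 to 1825 and 899 to 1453, without overlap, with 6 of 9 positive and a median of 0.095 (0.059 to 0.15 with single arrays left out). Nr4a1, a nuclear receptor, held most of that sum, at a log2 signal of 10.19 to 10.50 in the saline arrays and 8.98 to 10.08 in the LPS arrays. Without Nr4a1, an alternative chosen after seeing the data, the other 8 markers summed to 345 to 421 and 373 to 393, so the groups overlapped, and their median was 0.14. The summed signals of the endothelial, oligodendrocyte, choroid plexus and T and NK cell markers overlapped between the groups. An array gives no marker a value of 0. The part of these cells in the values of Serpina3n and A2m was not tested.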

How the data were processed

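RNA on tagged ribosomes was measured on 6 arrays, labelled from 100 ng of RNA each. Per the submitters' processing notes, the authors made the deposited log2 values in Affymetrix Expression Console by RMA, which corrects background, equalises arrays and summarises probes, so differences of dim clusters are compressed. The authors' deposited comparison table holds log2 group averages (bi-weight), a signed fold as a score, and analysis-of-variance p-values, per the file headers, from Transcriptome Analysis Console 3.0. The sources used here give no other tool version and no genome build. Arrays carry no count, so their number (3 a group) limits the precision.

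Where a symbol had several clusters, the one with the highest mean over the arrays was used. Differences are LPS minus saline fitted with lmFit and eBayes (limma 3.58.1, R 4.3.3) on group alone, adjusted by Benjamini-Hochberg over 34472 clusters at 0.05, and the fit was tested on simulated data. The value table has 41345 clusters, and the 6873 others entered only an alternative. Accessions were matched to the RefSeq table of GRCm38.p6, and promoter windows were aligned globally with Biopython 1.88. The members, the lists and the tests were chosen with earlier results of these data known. Named genes were the members, the paralogs, the 3 lowest p-values of each list and the 5 genes most like Serpina3n or A2m, of which 2 genes are not reported here. Pzp, Mug1, Mug2, Cd109, Hc, Il6, Osm, Lif, Clcf1, Il11 and Osmr were named after their values were seen.

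Whether equal numbers pair the arrays was checked from the arrays' deviations from their group means. These correlated by 0.27, 0.12 and 0.56 for numbers 1, 2 and 3 over the clusters tested, all above the criterion of 0.1, although saline 2 correlated more with LPS 1 (0.41). Saline 1 also correlated with LPS 2 (0.14). The arrays numbered 3 stood apart from the others in both groups, so these values cannot show that numbers 1 and 2 are pairs. The labels give a number no meaning, and the reported fit used no pairing. The labels call the arrays biological replicates.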

Additional observations from a re-analysis of the deposited data

How the results depend on the processing

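The differences of Serpina3n, A2m and Serpina3f kept their direction under every alternative run. Serpina3n ranged from 1.93 (without both arrays numbered 3) to 2.66 and A2m from 1.14 to 1.58. The count of members past the threshold was 0 in the reported fit and 1 with array weights, and 0 to 1 when single arrays were left out, the 1 being Serpina3n in each case. The count over all clusters was 1 in the reported fit. It was 0 over all 41345 clusters and 0 with the authors' analysis-of-variance p, 22 with array weights, 2 without both arrays numbered 3, and 0 to 12 when single arrays were left out, with 12 without LPS 1. With the replicate block 3 clusters passed, and the limma adjusted p was 0.116 for Serpina3n and 0.373 for A2m. The block changed no other call named here. Directions of the dim clusters were not stable. With array weights Serpina3m was -0.066, Serpina3c -0.036 and Serpina3j -0.0024. Without both arrays numbered 3 Serpina3m was -0.12 and Serpina3c -0.033. With single arrays left out the ranges were -0.26 to 0.13 for Serpina3g, -0.23 to 0.10 for Serpina3i, -0.27 to 0.32 for Serpina3m, -0.57 to 0.068 for Serpina3a, -0.64 to 0.0090 for Serpina3b and -0.22 to 0.25 for Serpina3c. The cause was not tested. No member had a second cluster to try. With 3 arrays a group and signals this low, smaller changes of these clusters were not detectable.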

Other observations

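The clusters of Serpina3g and Serpina3m varied together without following the groups, with Pearson's r of 0.95 over the 6 arrays. In both, the highest array was LPS 3 (5.51 and 5.16) and the highest saline array was saline 3 (5.12 and 4.68). Each correlated little with Serpina3n (0.16 and 0.18).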
